A study of Brassica rapa with 38 samples.

Results

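Head-to-head gene pairs are neighbouring genes transcribed away from each other, the left gene on the minus strand and the right gene on the plus strand, so that both start sites face the same short stretch of DNA. The pairs described here were those on chromosomes A01, A03, A05, A06, A07, A08 and A10 of *Brassica rapa* with a gap of 0 to 500 bases between the left gene's end coordinate and the right gene's start coordinate, and with both genes reaching a TPM of 1 in 2 or more of the 8 libraries. TPM scales a gene's reads by its length and by the sum over all genes, so it is a share and not a count. A segment of A06 with 126 gene models was left out. Fold changes and tests did not enter the criteria, but the filter used the same libraries, and the list of chromosomes was set with earlier results of these data known. The choice gave 325 pairs with 650 genes, of 46469 neighbouring pairs of gene models on the 10 chromosomes.

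RNA-seq was carried out on young inner leaves of monoploid, diploid and autotetraploid plants of genotype 85_1, collected 60 days after sowing at the heading stage. The monoploid came from microspore culture of an inbred line, the diploid from colchicine treatment of that monoploid, and the autotetraploid from a second colchicine treatment, so all 3 ploidy levels share 1 genome and all plants were propagated by tissue culture. There were 3 monoploid, 2 diploid and 3 autotetraploid libraries, with 5.86 to 8.06 Gb of aligned bases each. How many plants and doubled lines stand behind each library is not given in the sources used here, so p-values measure only the spread between these libraries, and ploidy cannot be told apart from colchicine treatment or from what a line carries along.

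In plants, as in animals, the DNA between head-to-head genes can act as a bidirectional promoter, from which RNA polymerase starts in both directions. Such a stretch may share an open chromatin region, histone marks and binding sites of transcription factors, and some head-to-head genes are known to be transcribed together, while others are regulated apart. Neighbouring genes on the same strand do not face each other with their start sites. They served here as the comparison at equal gap. The gene IDs of the deposited tables are not paired with gene names, so no function is given for any member and the leaf origin could not be checked with marker genes.

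Of 7707 head-to-head neighbours on the 7 chromosomes, 635 had a gap of 0 to 500 bases. Both genes passed the expression filter in 325 (51.2%) of these, 1 gene passed in 141, and neither passed in 169. Among same-strand neighbours with such a gap, both genes passed in 510 of 1248 (40.9%). In 263 of the 325 head-to-head pairs both genes reached a TPM of 1 in all 8 libraries. By contrast, 7 of the 650 genes, in 6 pairs, reached a TPM of 1 at a single ploidy level, 5 of them in the monoploid, so that the filter itself let them in through the group where they were high. Among same-strand pairs this held for 23 of 997 genes, in 20 pairs, 14 in the monoploid, 2 in the diploid and 7 in the autotetraploid. The shared calls and correlations of same-strand pairs are therefore not free of the filter either.

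The gaps of the 325 pairs ran from 13 to 500 bases with a median of 351, and 13 pairs had a gap under 100 bases. The 510 same-strand pairs had a median gap of 366.5 bases, and 58 of them had a gap under 100 bases. Chromosome A03 held 58 members and A08 held 28. Relative to the number of gene models, A10 was the densest with 16.2 members per 1000 models, and A08 the sparsest with 7.8. No gene belonged to 2 head-to-head pairs. A single pair overlapped a further gene model, and the files do not say whether reads were counted by strand, so reads from overlapping transcripts of neighbouring genes cannot be told apart.

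The levels of both genes of a head-to-head pair were set beside those of same-strand and of tail-to-tail pairs, whose genes end toward each other. The median TPM of the 650 genes was 12.9, against 9.76 for the 997 genes of same-strand pairs and 10.9 for all 25652 genes tested. By their mean log2(TPM + 1), both genes lay within 2-fold of each other in 29.5% of head-to-head pairs, against 46.9% of same-strand pairs and 31.1% of tail-to-tail pairs. In 23.1% they differed by 8-fold or more on this scale, against 17.6% of same-strand pairs and 22.7% of tail-to-tail pairs. Adding 1 to the TPM draws low levels together, so these are not plain ratios of TPM. The Pearson correlation of the mean log2(TPM + 1) of left and right genes was 0.08 across the 325 head-to-head pairs, 0.24 across the 510 same-strand pairs and -0.02 across the 1044 tail-to-tail pairs. In these measures the head-to-head pairs thus lay near the tail-to-tail pairs. All values come from the same libraries, and no test of the difference between the orientations was made here or in the comparisons that follow. Among the 5 bins of gap from 0 to 500 bases, same-strand pairs had the most similar levels at 0 to 99 bases, with a median difference of 0.19 on the log2 scale in 58 pairs, against 2.71 in the 13 head-to-head pairs of that bin. Whether some of these same-strand neighbours are parts of 1 transcript was not tested.

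**Figure D1:**
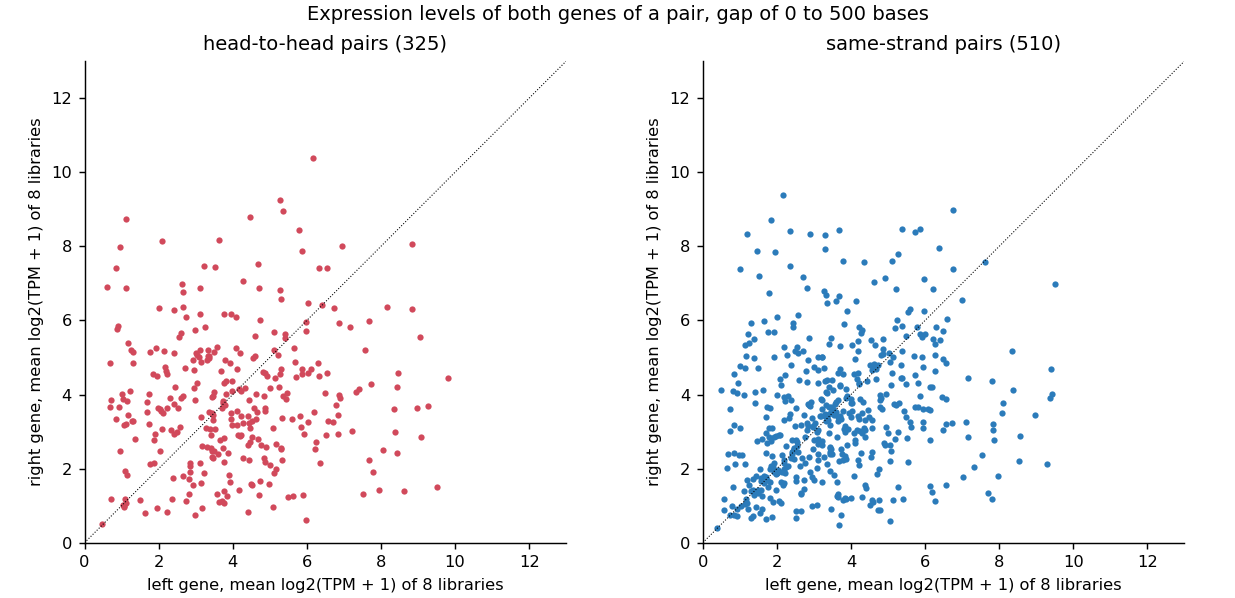
Mean log2(TPM + 1) over 8 libraries of the left gene (horizontal axis) and the right gene (vertical axis) of each pair, for 325 head-to-head pairs (left panel) and 510 same-strand pairs (right panel) with a gap of 0 to 500 bases. The dotted line marks equal levels. The same-strand pairs crowd along it more than the head-to-head pairs, with a correlation of 0.08 for the head-to-head pairs and 0.24 for the same-strand pairs.

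To ask whether both genes of a pair changed together when the monoploid genome was doubled, the diploid was compared with the monoploid by limma on log2(TPM + 1), and a gene was called if its Benjamini-Hochberg adjusted p did not exceed 0.05 and its log2 fold change was 1 or more in size. In the diploid, 42 of 650 head-to-head genes (6.46%) were called, 22 higher and 20 lower, against 10.2% of all genes tested, 4.87% higher and 5.36% lower. In 1 of the 325 pairs (0.308%) both genes were called in the same direction, and the background over all 16104 neighbouring pairs was 1.36%. Both genes of that pair were lower, as in 0.813% of all neighbouring pairs, and no head-to-head pair had both genes higher, against 0.546%. None had genes called in opposite directions, against a background of 0.379%, and 40 pairs (12.3%) had 1 gene called, against 16.4% of all neighbouring pairs. Both genes of that pair, on A07, passed the filter only through the monoploid, and it is also 1 of the 2 such pairs of the autotetraploid. By contrast, 17 of 510 same-strand pairs (3.33%) had both genes called in the same direction, 13 higher and 4 lower. How many of these 17 hold a gene that passed the filter through a single ploidy level was not counted. With 0.1 added to the TPM in place of 1, both genes were higher in 3 head-to-head pairs and lower in 1. Same-strand pairs then gave 18 and 5, and all 16104 neighbouring pairs 145 and 148. Both directions together made 1.23% of head-to-head pairs, 4.51% of same-strand pairs and 1.82% of all neighbouring pairs. Relative to the number of pairs, head-to-head pairs with both genes higher were then no rarer than such pairs among all neighbours. In the autotetraploid, both genes were then higher in 1 head-to-head pair and lower in 2, against 176 and 159 of all neighbouring pairs. Both directions together made 0.923% of head-to-head pairs there and 2.08% of all neighbouring pairs. Without diploid replicate 1, which leaves 1 diploid library, 21 head-to-head genes (3.23%) were called, against 6.18% of all genes. Among the 190 head-to-head pairs left when every gene had to reach a mean TPM of 5, no pair had both genes called in the same direction in the diploid or the autotetraploid, against 1.16% and 0.948% of all pairs and 2.6% and 3.72% of 269 same-strand pairs.

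The median change of all genes tested was 0.25 on the log2 scale in the diploid and 0.19 in the autotetraploid, both relative to the monoploid. The source of this shift was not tested. The 650 head-to-head genes had a median change of 0.34 in the diploid, with an interquartile range of 0.06 to 0.53. In the autotetraploid their median change was 0.24, with an interquartile range of -0.04 to 0.46. When the libraries were rescaled by median ratios, so that the median of all genes stood near 0, 7 head-to-head genes (1.08%) were higher and 31 (4.77%) lower in the diploid, against 2.51% and 7.34% of all genes. In the autotetraploid, 12 (1.85%) were higher and 35 (5.38%) lower, against 3.64% and 7.76% of all genes. The split into higher and lower genes thus depended on the scaling, whereas the number of pairs with both genes called in the same direction did not, at 1 and 2 pairs.

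In the autotetraploid, compared with the monoploid, 56 of 650 head-to-head genes (8.62%) were called, 26 higher and 30 lower, against 11.6% of all genes, 5.56% higher and 6.01% lower. Both genes were called in the same direction in 2 pairs (0.615%, against a background of 1.32%), lower in both, and in opposite directions in 1 pair (0.308%, against a background of 0.497%), while 50 pairs (15.4%) had 1 gene called, against 18.7% of all neighbouring pairs. Among same-strand pairs, 19 of 510 (3.73%) had both genes called in the same direction and 2 in opposite directions. Over all neighbouring pairs, both genes were lower in 0.714% and higher in 0.609%. The comparisons of the diploid and of the autotetraploid share the 3 monoploid libraries, so they are not independent of each other.

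The changes of left and right genes were nearly unrelated across head-to-head pairs. In the diploid against the monoploid, the Pearson correlation of the 2 log2 fold changes was 0.09 across 325 head-to-head pairs (Spearman 0.07), against 0.46 across 510 same-strand pairs (Spearman 0.30). In the autotetraploid against the monoploid it was 0.01 (Spearman -0.01), against 0.47 (Spearman 0.30). These are descriptions across pairs that share the same libraries. When the bins of gap were weighted by the number of head-to-head pairs in each, the correlations in the diploid were 0.04 for head-to-head pairs and 0.37 for same-strand pairs, and in the autotetraploid -0.03 and 0.39. Tail-to-tail neighbours gave 0.06 in the diploid and 0.03 in the autotetraploid across 1044 pairs.

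**Figure D2:**
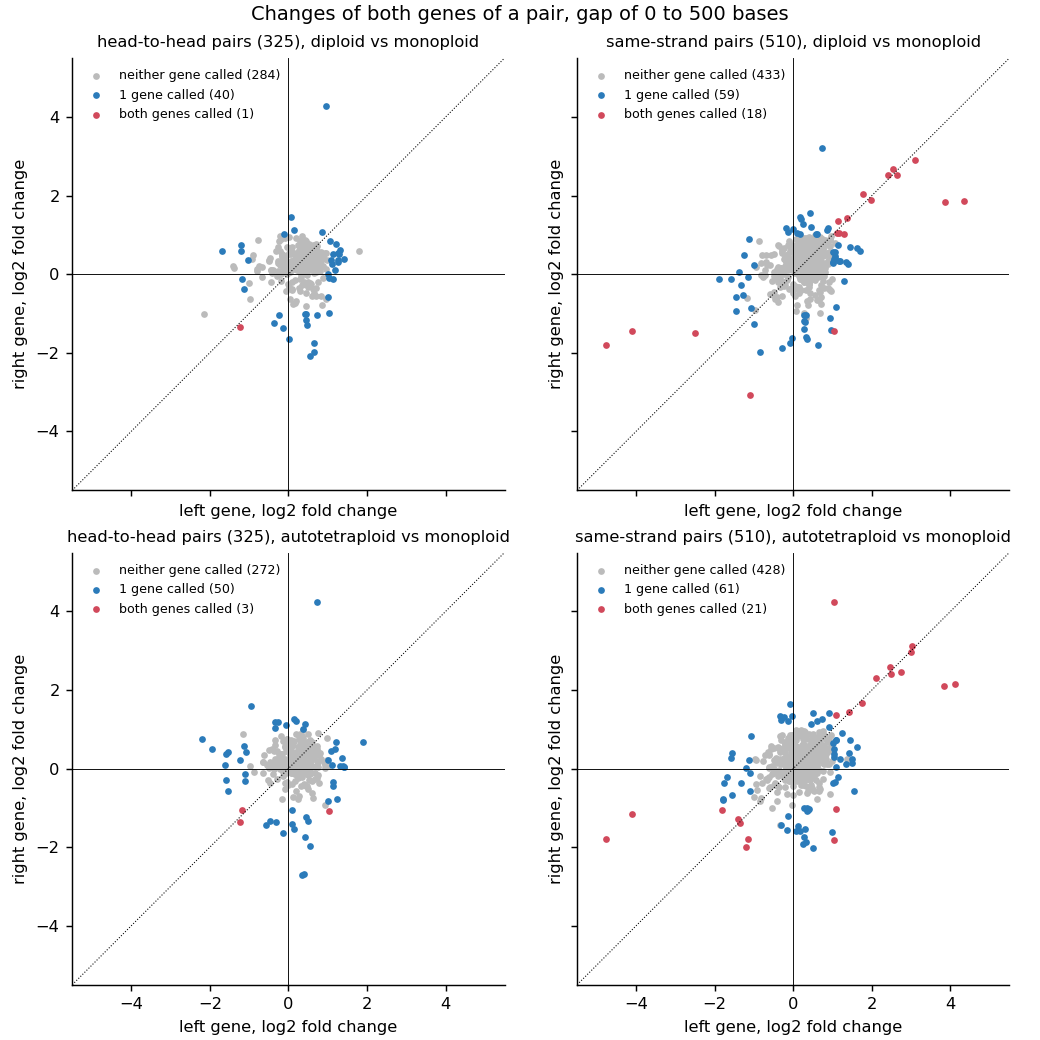
Log2 fold change, on the scale of log2(TPM + 1), of the left gene (horizontal axis) and the right gene (vertical axis) of each pair with a gap of 0 to 500 bases, head-to-head on the left and same-strand on the right, for diploid against monoploid (top) and autotetraploid against monoploid (bottom). Colours give the number of called genes in a pair, and the dotted line marks equal changes. Called head-to-head genes mostly lie off the dotted line with a partner near 0, while 18 and 21 same-strand pairs had both genes called, 17 and 19 of them in the same direction.

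The size of the gap was then considered, since the same-strand pairs included many with a very short one. Same-strand pairs with a gap of 0 to 99 bases had a correlation of 0.95 in the diploid and 0.94 in the autotetraploid (58 pairs). The 13 head-to-head pairs of this bin had correlations of -0.02 and 0.13, and none of their genes was called in either comparison. Head-to-head pairs at 100 to 199 bases stood out with 0.71 and 0.63, but there were only 16 of them, and at 200 to 299 bases 69 pairs gave -0.16 and -0.22. The correlations at 300 to 399 bases were 0.02 and -0.02 (122 pairs), and at 400 to 500 bases 0.10 and -0.03 (105 pairs). Without the bins under 200 bases, the 296 head-to-head pairs that remained gave 0.03 in the diploid and -0.04 in the autotetraploid, against 0.37 in both for the 414 same-strand pairs, a range chosen after seeing the values.

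Within the bin of 100 to 199 bases, 3 of the 16 head-to-head pairs held a called gene, among them both A07 pairs described below. In 1 of these A07 pairs both genes passed the filter only through the monoploid, so they had to be lower elsewhere. In the other, the left gene reached a TPM of 1 only in the diploid, so the filter set its rise there. The filter did not set the change of that gene in the autotetraploid. The right gene of that pair reached a TPM of 1 at all 3 ploidy levels. Without the 3 pairs with a called gene, the correlation was 0.71 in the diploid and 0.47 in the autotetraploid across 13 pairs. Beyond 500 bases the difference between orientations was smaller, and at 501 to 1000 bases it was reversed, with the higher value in head-to-head pairs. The correlation in that bin was 0.22 for 382 head-to-head pairs and 0.12 for 1212 same-strand pairs in the diploid, and 0.25 and 0.14 in the autotetraploid. At all greater distances, both orientations had correlations between 0.07 and 0.16.

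**Figure D3:**
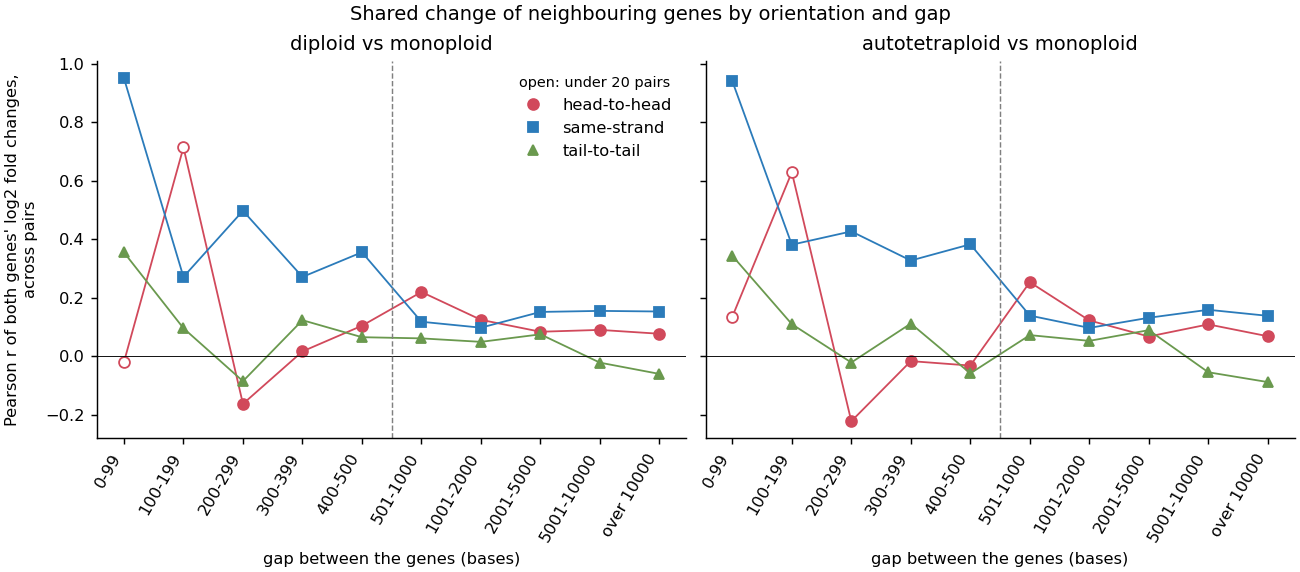
Pearson correlation across pairs of the log2 fold changes of both genes (vertical axis) by the gap between them in bases (horizontal axis, bins of unequal width), for head-to-head, same-strand and tail-to-tail neighbours, in the diploid (left) and the autotetraploid (right) against the monoploid. Open symbols have under 20 pairs and the dashed line marks 500 bases. Head-to-head pairs lie near 0 from 300 to 500 bases and below it at 200 to 299 bases, apart from the open symbol of 16 pairs at 100 to 199 bases, while same-strand pairs start at 0.95 and 0.94.

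Pairs with both genes called contributed to the same-strand correlation. Most of them were called in the same direction, so a lower value without them was largely built in. Leaving out the pairs called in both genes in any comparison, a choice made after seeing the values, gave 0.07 for 322 head-to-head pairs and 0.18 for 483 same-strand pairs in the diploid, and -0.02 and 0.19 in the autotetraploid. Bin by bin, without such pairs of the comparison in question, same-strand pairs gave 0.85 in the diploid and 0.78 in the autotetraploid at 0 to 99 bases (52 pairs in each), but at 400 to 500 bases 0.11 (205 pairs) and 0.07 (203 pairs). The head-to-head pairs gave 0.10 (105 pairs) and -0.06 (103 pairs) in this last bin, so that the 2 orientations lay closer together there.

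Smaller changes were counted next. Both genes lay at least 0.5 from the median change on the log2 scale, in the same direction, in 9 head-to-head pairs (2.77%) in the diploid, against 45 same-strand pairs (8.82%) and a background of 7.09%. They did so in opposite directions in 6 head-to-head pairs (1.85%), against 11 same-strand pairs (2.16%) and a background of 3.81%. In the autotetraploid, 10 head-to-head pairs (3.08%) moved by this much in the same direction and 13 (4.0%) in opposite directions, against 56 (11.0%) and 12 (2.35%) same-strand pairs, with backgrounds of 7.58% and 4.19%.

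A laxer rule, an adjusted p of 0.05 or less whatever the fold, was applied after median-ratio rescaling, so that small changes were counted around a common median. By this rule, both genes were called in the same direction in 7 head-to-head pairs and in opposite directions in 5 in the diploid, against 26 and 8 same-strand pairs and backgrounds of 3.65% and 2.06% of all neighbouring pairs. The 7 pairs amount to 2.15% of the head-to-head pairs and the 26 to 5.10% of the same-strand pairs. In the autotetraploid, the counts were 13 in the same direction and 9 in opposite directions for head-to-head pairs, against 49 and 9 for same-strand pairs, with backgrounds of 6.56% and 4.15%. Of the head-to-head pairs with both genes called in this way, 58.3% in the diploid and 59.1% in the autotetraploid moved in the same direction, against 76.5% and 84.5% of such same-strand pairs and 64.0% and 61.3% of such pairs among all neighbours.

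By their medians, the changes of head-to-head genes were somewhat smaller. The median distance from the median change was 0.26 in the diploid for the 650 head-to-head genes, against 0.30 for same-strand genes and 0.31 for all genes, and 0.25, 0.30 and 0.31 in the autotetraploid. Both genes stayed within 0.5 of the median change in 201 head-to-head pairs (61.8%) in the diploid, against 54.3% of same-strand pairs and 49.2% of all pairs. For the 40 head-to-head pairs with 1 called gene in the diploid, the partner lay on the same side of the median change in 19 (47.5%), against 38 of 59 same-strand pairs (64.4%), 46.9% of tail-to-tail pairs and 53.7% of all such pairs. In the autotetraploid this held for 22 of 50 head-to-head pairs (44.0%), against 33 of 61 same-strand pairs (54.1%), 50.6% of tail-to-tail pairs and 56.1% of all such pairs. The median change of the partner, counted in the direction of the called gene and from the median of all genes, was -0.10 and -0.12 in head-to-head pairs of the diploid and the autotetraploid.

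The spread between libraries of 1 ploidy level gave a view that does not use the ploidy comparison. The correlation of the deviations of left and right genes from their group mean was between -0.04 and 0.15 in the 8 libraries for head-to-head pairs, and between 0.13 and 0.28 for same-strand pairs. In each library, apart from monoploid replicate 1, the head-to-head value was the lower one. In monoploid replicate 1 the 2 values were 0.14 and 0.13. With 2 diploid libraries, their deviations mirror each other and give 1 value.

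Since a shared change leaves the ratio of both genes as it was, the log2 ratio of the left to the right gene was tested in each pair with limma, over all 16104 neighbouring pairs. The ratio was called in 37 head-to-head pairs (11.4%) in the diploid, against a background of 17.9% and 60 same-strand pairs (11.8%). In 24 of the 37 the ratio shifted toward the left gene and in 13 toward the right gene. The counts were 39 and 21 in same-strand pairs, and 1459 and 1431 over all neighbouring pairs. In the autotetraploid, the ratio was called in 48 head-to-head pairs (14.8%), against a background of 20.4% and 67 same-strand pairs (13.1%). The median absolute change of the ratio was 0.34 in the diploid in both orientations, and 0.38 and 0.35 in the autotetraploid for head-to-head and same-strand pairs. Of the 37 ratio changes in the diploid, 24 were in pairs with 1 called gene and 13 in pairs with none. These counts were 28 and 26 of the 60 in same-strand pairs, and 1767 and 1013 of the 2890 over all neighbouring pairs. The low correlation of head-to-head partners thus stood beside ratio changes of about the size seen in same-strand pairs.

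**Figure D4:**
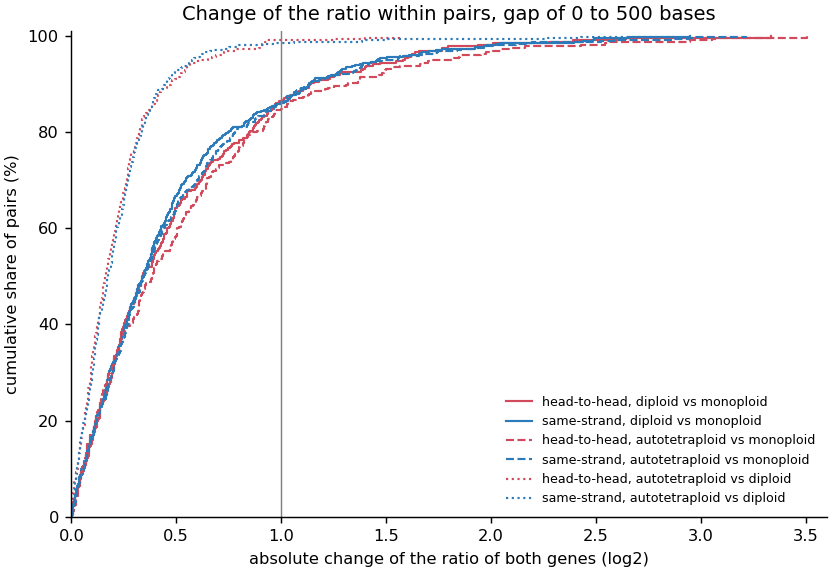
Cumulative share of pairs (vertical axis, %) by the absolute change of the log2 ratio of left to right gene (horizontal axis), for head-to-head and same-strand pairs with a gap of 0 to 500 bases in 3 comparisons. The grey line marks the threshold of 1. The curves of both orientations run close together, and those of autotetraploid against diploid lie to the left, with 0.923% of head-to-head pairs and 1.37% of same-strand pairs beyond 1.

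Between the autotetraploid and the diploid, calls were nearly absent among the members and among all genes alike. The log2 fold changes of the 650 head-to-head genes ran from -0.81 to 1.91. With 2 diploid libraries, a lack of calls does not show a lack of change. No head-to-head gene was called by limma, against 0.0273% of all genes (0.0195% higher and 0.0078% lower), and none of the 325 ratios, against 0.0435% of all pairs. At an unadjusted p under 0.05, before any adjustment, there were 31 of 650 genes (4.77%), against 5.41% of all genes tested, and 16 of 325 ratios (4.92%), against 5.3% of all pairs. The smallest Benjamini-Hochberg adjusted p was 0.483 among the genes and 0.688 among the ratios. Both genes moved by at least 0.5 from the median change in the same direction in 1 head-to-head pair and in opposite directions in 1, against 0.826% and 0.192% of all neighbouring pairs. The correlation of partner changes was 0.04 across head-to-head pairs (Spearman -0.08) and 0.19 across same-strand pairs (Spearman 0.12). Without diploid replicate 1, 0.308% of the genes and 0.615% of the ratios were called, against 0.265% of all genes and 0.273% of all pairs.

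The pair with both genes called in the same direction in both comparisons lay on A07, where BRA07G005337 (minus strand, 22975860 to 22976447) and BRA07G005338 (plus strand, 22976641 to 22977932) are separated by 193 bases. BRA07G005337 was listed at 0 in the 2 diploid and the 3 autotetraploid libraries, and at 1.22, 1.45 and 1.35 TPM in the monoploid libraries. BRA07G005338 was also listed at 0 in all diploid and autotetraploid libraries, and at 1.29, 2.1 and 1.33 TPM in the monoploid libraries. Both genes thus stood just above the expression filter in the monoploid and at 0 in the other groups, with no overlap, and no fold change is given against 0. Since both genes passed the filter only through the monoploid, they had to be lower elsewhere, and their calls are given as a description with no p.

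A further pair fell in both genes in the autotetraploid. It lay on A05, around a gap of 495 bases at 1374374 to 1374868. Its left gene had 1.27, 1.69 and 1.98 TPM in the autotetraploid, against 5.46, 3.26 and 6.57 TPM in the monoploid, a log2 fold change of -1.17 (SE 0.225, adjusted p = 0.00403). Its right gene had 2.59, 2.14 and 1.72 TPM in the autotetraploid, against 6.08, 4.24 and 6.47 TPM in the monoploid, a log2 fold change of -1.06 (SE 0.181, adjusted p = 0.00239). The libraries of both groups did not overlap in either gene, and the ratio changed by -0.11 (adjusted p = 0.758). In the diploid, with 2.25 and 1.84 TPM for the left gene and 3.07 and 3.33 TPM for the right gene, the log2 fold changes of -0.97 and -0.64 stayed above the threshold of -1. The left gene's change in the diploid ran from -1.23 to -0.79 over 21 alternatives, and 4 of them gave a call. In the autotetraploid the changes of both genes lie close to the threshold too. The right gene lost its call without monoploid replicate 1, monoploid replicate 3 or autotetraploid replicate 3. Without each of the last 2 libraries its log2 fold change was -0.96, and without monoploid replicate 1 it lay at the threshold. The left gene lost its call, at the threshold, without monoploid replicate 3.

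The largest change of a ratio was on A07, where the left gene BRA07G005087 (minus strand, 21385082 to 21385853) and the right gene BRA07G005088 (plus strand, 21385969 to 21387176) are 115 bases apart. BRA07G005088 had 36.9 and 39.2 TPM in the diploid libraries, against 1.34, 0.827 and 0.869 TPM in the monoploid libraries. In the autotetraploid it had 39.2, 38.2 and 33.2 TPM. This gene rose by 4.29 on the log2 scale in the diploid (SE 0.156, adjusted p = 5.53e-07) and by 4.24 in the autotetraploid (SE 0.14, adjusted p = 2.08e-07), and no library of either group came near the monoploid values.

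Its partner BRA07G005087 had 1.37 and 1.05 TPM in the diploid and 0.947, 0.973 and 0.766 TPM in the autotetraploid, against 0.123, 0.175 and 0.118 TPM in the monoploid. These values did not overlap either, but they lie near the pseudocount of 1, which compresses the fold change of low values. On the log2(TPM + 1) scale, the difference was 0.95 in the diploid and 0.73 in the autotetraploid, both under the threshold of 1, with no p given, since this gene reached a TPM of 1 only in the diploid and passed the filter through that group. With a pseudocount of 0.1 the differences were 2.45 and 2.06, so the size of this gene's rise depended on the pseudocount. Both genes of the pair thus stood above the monoploid. The log2 ratio of left to right gene was lower by 3.33 in the diploid (SE 0.228) and by 3.51 in the autotetraploid (SE 0.204). Over the alternative settings, the change of the ratio ran from -3.48 to -2.68 in the diploid and from -3.63 to -3.02 in the autotetraploid.

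The next largest ratio changes lay on A01, and in both cases the right gene fell. Around the gap of 368 bases at 9540484 to 9540851, the right gene had 1.67 and 1.21 TPM in the diploid and 0.230, 0.357 and 0.904 TPM in the autotetraploid, against 9.39, 8.44 and 8.12 TPM in the monoploid. Its log2 fold change was -1.99 in the diploid (SE 0.216, adjusted p = 0.000479) and -2.71 in the autotetraploid (SE 0.193, adjusted p = 2.56e-05). The left gene had 5.83 and 5.56 TPM in the diploid and 4.53, 4.52 and 4.09 TPM in the autotetraploid, against 3.45, 3.43 and 2.88 TPM in the monoploid. The left gene thus stood above the monoploid, by 0.66 and 0.34 and under the threshold, where its neighbour stood below it. The ratio shifted by 2.64 (adjusted p = 0.000276) and 3.05 (adjusted p = 4.01e-05).

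Around the gap of 423 bases at 44833400 to 44833822 on A01, the right gene had 12.2 and 28.6 TPM in the diploid and 11.0, 4.90 and 30.6 TPM in the autotetraploid, against 82.8, 76.0 and 89.4 TPM in the monoploid. The libraries of the diploid and the autotetraploid varied widely, yet none reached the monoploid range. The log2 fold change was -2.08 in the diploid (SE 0.585, adjusted p = 0.0255) and -2.68 in the autotetraploid (SE 0.524, adjusted p = 0.00444). The left gene had 16.3 and 18.4 TPM in the diploid and 13.8, 16.4 and 15.8 TPM in the autotetraploid, against 11.9, 10.4 and 12.1 TPM in the monoploid, differences of 0.56 and 0.39 under the threshold. The ratio shifted by 2.64 (adjusted p = 0.0109) and 3.07 (adjusted p = 0.00208). The call of the right gene in the diploid was lost without monoploid replicate 1, monoploid replicate 3 or diploid replicate 1, with an adjusted p of 0.0579, 0.0676 and 0.186. It was also lost with no filter on low values (adjusted p = 0.133) and with the replicate number as a block (adjusted p = 0.0561). The call of the ratio was lost without diploid replicate 1, with an adjusted p of 0.110, and with no filter, with 0.0567.

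The single pair called in opposite directions, described because of that result, lay on A06 around a gap of 499 bases at 8000337 to 8000835. The left gene had 34.4, 36.7 and 28.2 TPM in the autotetraploid and 35.3 and 30.4 TPM in the diploid, against 14.9, 17.0 and 14.9 TPM in the monoploid. The right gene had 125, 110 and 183 TPM in the autotetraploid and 120 and 174 TPM in the diploid, against 310, 256 and 298 TPM in the monoploid. Both genes were separated from the monoploid in all libraries, in opposite directions. In the autotetraploid the log2 fold changes were 1.03 (SE 0.136, adjusted p = 0.00068) and -1.07 (SE 0.214, adjusted p = 0.00477), and the ratio shifted by 2.1 (adjusted p = 0.000993). The rise of the left gene was 0.82 after median-ratio rescaling, and it was under the threshold of 1 without monoploid replicate 1 or 3 or autotetraploid replicate 1 or 2, the lowest value being 0.95. The right gene lost its call without autotetraploid replicate 2, at -0.92.

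**Figure D5:**
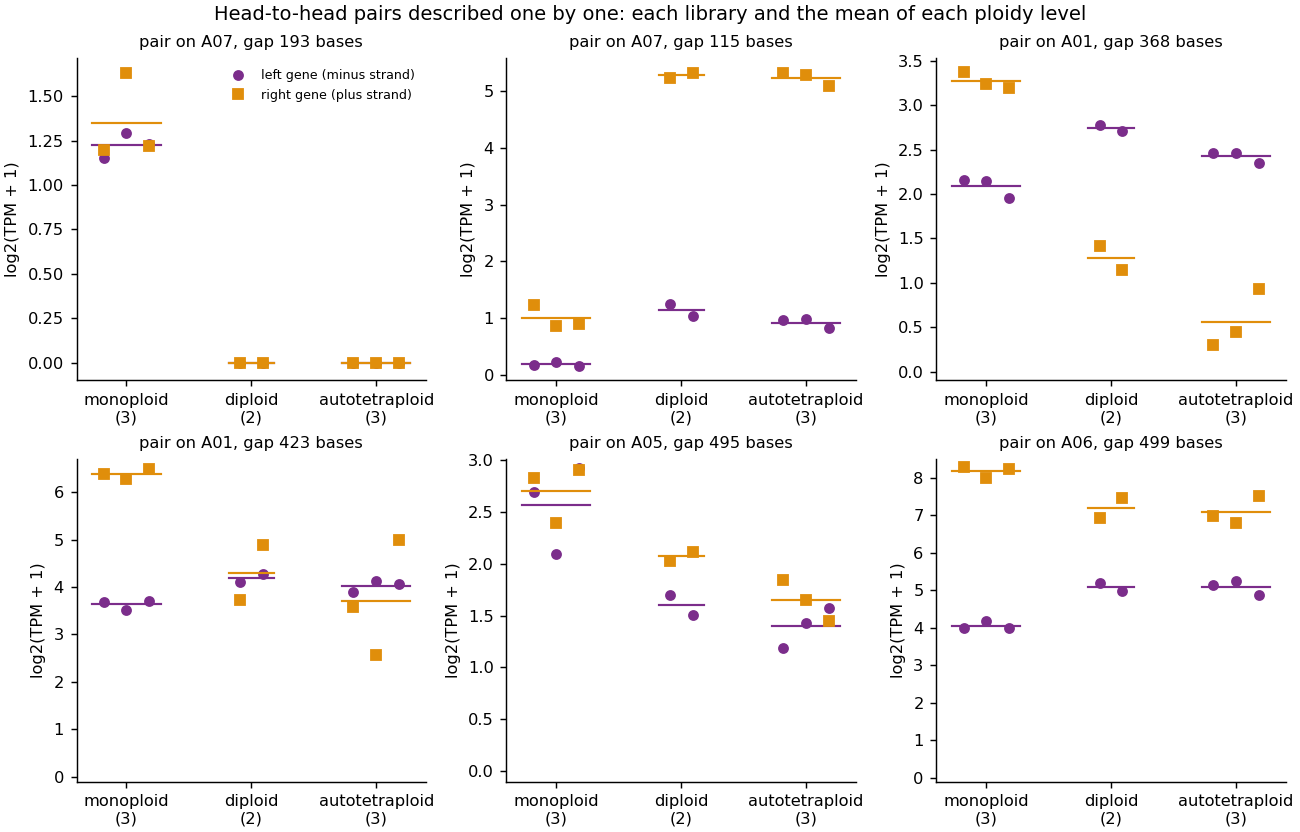
Log2(TPM + 1) (vertical axis) of the left gene (circles) and the right gene (squares) of 6 head-to-head pairs in the monoploid, diploid and autotetraploid libraries (horizontal axis, number of libraries in brackets), with a line at each group mean. Both genes were lower together in the pairs with gaps of 193 bases, where all points of the diploid and autotetraploid lie at 0 on top of each other, and of 495 bases in the autotetraploid. In the other 4 panels the partner of the right gene moved less on this scale or in the other direction.

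At the edges of the range of gaps no gene was called in either comparison with the monoploid. The narrowest gap, 13 bases on A06 at 39771282 to 39771294, separated a left gene with 2.79 and 3.06 TPM in the diploid and 1.5, 1.5 and 1.68 TPM in the monoploid from a right gene with 3.44 and 2.37 TPM in the diploid and 3.68, 4.55 and 3.86 TPM in the monoploid. In the autotetraploid the left gene differed from the monoploid by 0.68 on the log2 scale (adjusted p = 0.0595), and without autotetraploid replicate 3 by 1.0 (adjusted p = 0.00358), which was a call. The widest gap within the range, 500 bases on A08, lay between genes with a mean of 11.1 ± 0.554 and 4.16 ± 0.503 TPM in the diploid (SD, n = 2) and 9.38 ± 1.62 and 3.52 ± 0.707 TPM in the monoploid (SD, n = 3). In the autotetraploid its right gene had 6.43 ± 1.05 TPM (SD, n = 3), a log2 fold change of 0.72 (adjusted p = 0.0102) under the threshold of 1, while its left gene differed by 0.08 (adjusted p = 0.723). The narrowest gap outside the range, 501 bases on A10, lay between a left gene with 13.7 TPM in both diploid libraries, against 10.2, 11.6 and 9.3 TPM in the monoploid, and a right gene with 70.3 and 74.1 TPM in the diploid, against 46.3, 60.5 and 45.5 TPM in the monoploid.

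The correlation of head-to-head partners was also taken by chromosome, with 28 to 58 pairs each. Whether these values differ beyond the spread of so few pairs was not tested. In the diploid it was highest on A07, at 0.31 across 36 pairs, which include both A07 pairs described above, and lowest on A01, at -0.12 across 41 pairs, which include both A01 pairs. In the autotetraploid it was 0.24 on A07 and -0.12 on A01, and lowest on A10, at -0.13 across 54 pairs. Both A07 pairs described above hold genes that passed the filter through a single ploidy level, so the values on A07 are not free of the filter. The ratio was called in 6.90% of the pairs on A03 to 14.8% of those on A06 in the diploid, and in 10.7% of the pairs on A08 to 19.5% of those on A01 in the autotetraploid.

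The 3 chromosomes outside the choice of members, A02, A04 and A09, held 112 further head-to-head pairs by the same criteria, and shared calls were more frequent there. Among the members a lower share of genes was called than among all genes, so their count of shared calls is not free of that share. Both genes were called higher in 4 of the 112 pairs (3.57%), in the diploid and in the autotetraploid, against 4 (2.2%) and 5 (2.7%) of 182 same-strand pairs there with both genes called in the same direction. The correlation of partner changes was 0.39 in the diploid and 0.54 in the autotetraploid across the 112 pairs, against 0.34 and 0.38 across the 182 same-strand pairs. Spearman's correlation was 0.05 and 0.14 across the 112 pairs, against 0.23 and 0.37 across the 182 same-strand pairs. Without the pairs called in both genes, the 108 head-to-head pairs that remained gave -0.04 and 0.06, against 0.15 for 177 and 0.30 for 174 same-strand pairs. All 4 head-to-head pairs left out were called in the same direction, so a lower value without them was built in. Between the autotetraploid and the diploid, where no pair was called there, the correlation was 0.32 for the 112 head-to-head pairs (Spearman 0.18) and 0.39 for the 182 same-strand pairs (Spearman 0.28). Over all 10 chromosomes, 437 head-to-head pairs had correlations of 0.19 and 0.21, and the share with both genes called in the same direction was 1.14% and 1.37%, close to the backgrounds of 1.36% and 1.32%.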

How the data were processed

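RNA-seq of young leaves was used from 3 monoploid, 2 diploid and 3 autotetraploid libraries, grouped by their titles; ATAC-seq, ChIP-seq and other samples were not analysed here. According to the submitters' notes, the authors trimmed reads with fastp 0.21.0, aligned them with HISAT2 2.2.1 and quantified gene models with StringTie 1.3.5. The assembly, the annotation and the strand setting are not given in the sources used here, and coordinates are those of the deposited tables. The deposited TPM values sum to 1 fixed total in every library. The deposited FPKM values are fragments scaled by gene length and by library depth, and the deposited coverage is the mean signal over each gene model, not normalized for depth. The ratio of coverage to FPKM gave the aligned bases per library. TPM keeps no counts, so no counting interval was computed, precision rests on the replicates, and the authors' counting with featureCounts 2.0.1 and their test on counts could not be repeated. The file of monoploid replicate 1 holds 3 extra columns, which were not used. Of the 46479 gene IDs, 0 matched the RefSeq gene table used here.

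Genes that reached a TPM of 1 in 2 or more libraries were kept (25652 on 10 chromosomes). In R 4.3.3 with limma 3.58.1, log2(TPM + 1) was modelled by ploidy level over all 8 libraries, with 1 estimate of the spread for the 3 groups since the diploid has 2 libraries, with a trend on mean expression and Benjamini-Hochberg adjustment over all genes. The log2 ratio of left to right gene was fitted in the same way and adjusted over all 16104 neighbouring pairs with both genes kept. A call needed an adjusted p no larger than 0.05 together with a change of 1 or more in either direction. The pseudocount of 1 understates the change of low genes. The gap is the number of bases between the left gene's end and the right gene's start. Correlations across pairs are descriptions with no p. The fit was tested on simulated data. Tables were read with pandas 2.3.3 and figures drawn with matplotlib 3.10.9.

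Pairs were described singly if both genes were called in the same direction with no overlap between libraries, ranked by the smaller change, or if their ratio change was among the 3 largest called, together with the narrowest gap and the gaps on either side of 500 bases. The pair called in opposite directions was added after its values were seen. The members, thresholds and alternatives were chosen with earlier results of these data known. Alternatives were a pseudocount of 0.1, other filters and scalings, an adjusted p of at most 0.01, no trend, a replicate block, only the 2 groups compared, other ranges of gap, all chromosomes, leaving out pairs that overlap a further model or have similar spans, and each library left out in turn.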

Additional observations from a re-analysis of the deposited data

How the results depend on the processing

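Values are given where a share moved by over 1.5 times or a correlation by more than its SD over single libraries; some alternatives cannot move some results. With a pseudocount of 0.1, 9.85% of head-to-head genes were called in the diploid against the monoploid, both genes of a pair were called in the same direction in 1.23% of pairs (13.8% and 1.82% over all genes and pairs), and the correlation of partner changes was 0.211 in the diploid and 0.119 in the autotetraploid. With a mean TPM of at least 5, no pair (0%) had both genes called in the same direction in either group, and the correlation was 0.0337 in the diploid, -0.0556 in the autotetraploid and 0.178 between autotetraploid and diploid. With gaps of 0 to 200 bases, 30 pairs, both genes were called in 3.33% and the ratio in 6.67% in either group against the monoploid, and the 3 correlations were 0.517, 0.43 and -0.0761. These 3.33% are 1 pair, the A07 pair that passed the filter only through the monoploid. Of 97 same-strand pairs, 6.19% had both genes called in either group, and 1.03% and 4.12% the ratio. Backgrounds over all neighbouring pairs were 1.36% and 1.32% for both genes in the same direction, and 17.9% and 20.4% for the ratio. With gaps of 0 to 1000 bases, the correlation was 0.169 in the diploid and 0.154 in the autotetraploid, and both genes were called in 0.707% in the diploid. With all 10 chromosomes, the 3 correlations were 0.189, 0.213 and 0.178, and both genes were called in 1.14% and 1.37% in the diploid and the autotetraploid. With gaps of 200 to 500 bases, chosen after seeing the data, the correlation was 0.0301 in the diploid and -0.0449 in the autotetraploid, and Spearman's correlation between autotetraploid and diploid, also chosen later, was -0.0782. The cause was not tested. Leaving out each library in turn, the correlation ran from 0.0635 (without monoploid replicate 3) to 0.118 in the diploid, from -0.013 to 0.0463 in the autotetraploid, and from -0.043 to 0.14 between them (lowest when autotetraploid replicate 2 was left out, highest for replicate 3). The share of genes called ran from 3.23% (without diploid replicate 1) to 8.31% in the diploid, from 7.54% to 9.69% in the autotetraploid, and from 0% to 0.308% between them. The share of ratios called ran from 7.08% (without diploid replicate 1) to 11.4%, from 13.2% to 17.2%, and from 0% to 0.615%, and that of pairs with both genes called from 0.308% to 0.615% (without diploid replicate 2) in the diploid and from 0.308% (without monoploid replicate 1, monoploid replicate 3 or autotetraploid replicate 3) to 0.615% in the autotetraploid. Where 1 diploid library is left, it is assumed to vary like the other groups.

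By the criterion used, a correlation over 0.1 in every pair, the replicate numbers did not pair the libraries: the correlation of deviations from the group mean over genes was 0.217, 0.181 and 0.0823 between same-numbered monoploid and autotetraploid libraries (-0.188 to -0.0154 between differently numbered ones), but -0.0415 and -0.0837 between monoploid and diploid, and 0.0305 and -0.224 between diploid and autotetraploid. With the replicate number as a block, 4.92% of head-to-head genes were called in the diploid and 8.46% in the autotetraploid, the ratio was called in 10.5% and 15.1%, both genes in 0.308% and 0.615%, and the correlation was 0.0998 and 0.0118.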
